A study of Mus musculus with 6 samples.

Results

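The small subunit of the cytosolic ribosome, the 40S subunit, is built from 1 ribosomal RNA and a fixed roster of proteins, most of them named Rps. The genes of these proteins were followed here in mouse hematopoietic stem and progenitor cells with and without ING4. Members were the protein-coding genes whose symbol is Rps followed by a number, together with Rpsa and Fau, and the S6 kinase genes (Rps6k) were left out. Of 49315 genes in the count tables, 34 met this rule. A further 3 symbols of the same form, Rps3a2, Rps3a3 and Rps4l, are annotated as pseudogenes and are not members.

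Bulk RNA-seq had been done on LT-HSCs, ST-HSCs and MPPs, the long-term and short-term hematopoietic stem cells and the multipotent progenitors that follow them. Each population was represented by 1 WT library and 1 ING4-/- library, sorted from lineage-depleted marrow pooled from 8 to 10 mice of that genotype, with 1000 to 10000 cells per sort. WT mice were C57BL/6 young adults of at least 8 weeks of age, ING4-/- mice lacked Ing4 throughout the body and not in blood cells alone, and the age of the ING4-/- mice is not given in the sources used here. No treatment was applied to either genotype. Values listed in triplets are those of LT-HSCs, ST-HSCs and MPPs, in that order. The genotype comparison set the 3 ING4-/- libraries against the 3 WT libraries, so that populations stood in for replicates and p-values measure the spread between these libraries. The 3 libraries of a genotype may have been sorted from the same pooled mice, so n = 3 counts libraries and may not count independent animals.

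Ribosomal proteins are needed in nearly equal numbers, because each is present once per subunit. Their mRNAs are among the most abundant of any cell and begin with a run of pyrimidines, the 5′ terminal oligopyrimidine (TOP) motif, through which mTOR signalling and LARP1 control their translation. Hematopoiesis is unusually sensitive to them: loss of a single copy of several of these genes causes Diamond-Blackfan anaemia, a failure of red cell production.

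Facts of the libraries touch every value below. Total counts were 7839326 to 9363442 in WT and 35596876 to 39192588 in ING4-/-. The 1431 olfactory and vomeronasal receptor genes, which blood cells are not known to use, had 18.1 to 22.7 counts per kb of exon in WT and at most 0.0851 in ING4-/-. Spread over all genes by exonic length, that density amounted to 22.6 to 33.4% of the counts in WT and at most 0.0280% in ING4-/-. Ing4 itself had 247, 162 and 247 counts in WT and 0, 24 and 76 in ING4-/-, where 96.2 to 121 counts in WT would come from the background alone. The stem cell surface genes Kit and Cd34 were detected in all 6 libraries, and in ING4-/- LT-HSCs Cd48 was at 0 and Flt3 at 0.0318 CPM, the count scaled to a common TMM-normalized library total. Not all surface genes followed the sort in this way. LT-HSCs, sorted without CD34, had Cd34 at 109 CPM in WT and 302 in ING4-/-. ST-HSCs and MPPs, sorted without CD48, had Cd48 at 16.5 and 36.7 CPM in WT and 33.9 and 126 in ING4-/-. Slamf1, which encodes the CD150 used to sort ST-HSCs, was there at 80.9 CPM in WT and 27.9 in ING4-/-. Genotype and the background density cannot be told apart across these libraries.

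RNA of the small-subunit genes took a larger part of the ING4-/- libraries. The 34 genes held 1.27%, 1.39% and 1.39% of the counts in WT and 5.44%, 5.06% and 5.18% in ING4-/-. The mean was 1.35% ± 0.070 (SD, n = 3) in WT and 5.23% ± 0.19 (SD, n = 3) in ING4-/-, a ratio of 3.87. The genotypes did not overlap, and the two-sided exact permutation test gave p = 0.1, the smallest that 3 against 3 libraries allow. After subtraction of the background density the ratio was 3.01, with 1.74% ± 0.10 in WT and 5.23% ± 0.19 in ING4-/-. In bulk RNA, fewer cells of a type and less RNA per cell cannot be told apart.

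Gene by gene, 33 of the 34 members were called higher in ING4-/- and none was called lower. A call required an adjusted p under 0.05 in edgeR's quasi-likelihood test and a log2 fold change over 1. Among all 31001 genes tested, 7.98% were called higher. The median log2 fold change of the members was 2.45, a 5.45-fold difference, and 31 of them lay between 2 and 3. With the background density subtracted it was 1.65 on the log2 scale. The median over all genes tested was -6.85, and 17566 genes (56.7%) were called lower. Every ING4-/- library exceeded every WT library in CPM for 34 of 34 members, against 12.0% of all genes tested.

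**Figure D1:**
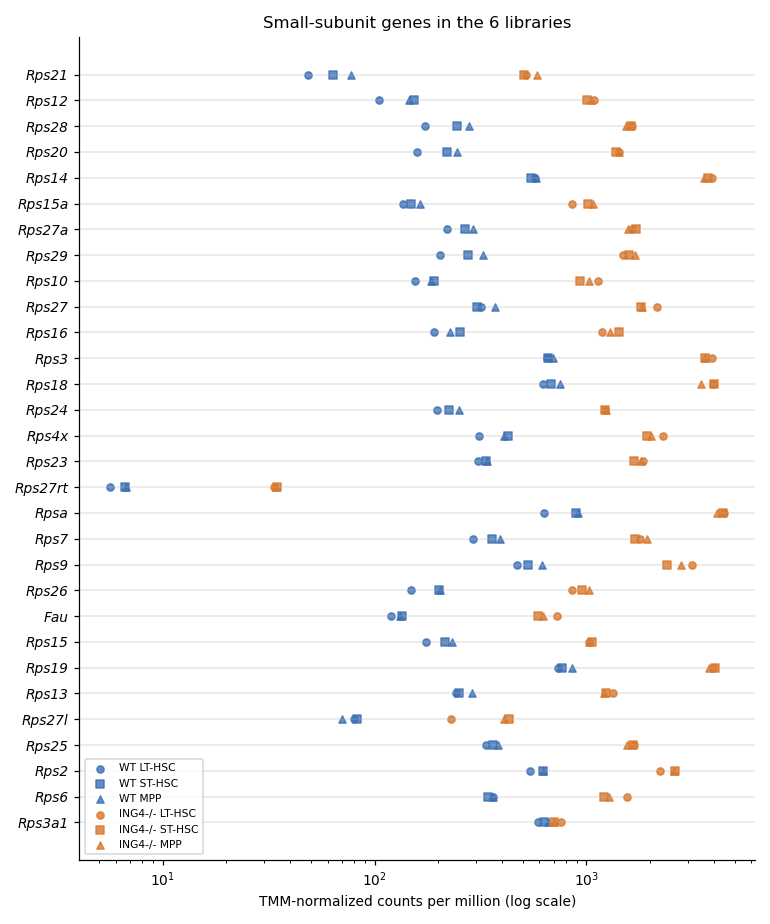
TMM-normalized CPM (log axis) of 30 of the 34 small-subunit genes in each of the 6 libraries, WT in blue and ING4-/- in orange, with a symbol shape for each population and genes ordered by fold change. The WT and ING4-/- points are apart in each row, by the least in Rps3a1, with 593 to 662 CPM in WT against 700 to 758 CPM in ING4-/-.

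When testing was limited to 9673 genes, those reaching 10 counts in each library, the median over all genes was 0.063 and that of the members 1.98. In that fit 33 of the 34 members were again called higher, against 9.26% of all genes. Summed marker lists of other cells were apart between genotypes for erythroid and for granulocyte and monocyte genes, and overlapped for the rest. The summed CPM of 6 erythroid genes was 15.9 to 22.1 in WT and 82.4 to 142.7 in ING4-/-, although Alas2, which red cell precursors need for heme, was at 0 in every ING4-/- library. For 7 granulocyte and monocyte genes the sums were 356 to 539 and 940 to 1070, and for 4 megakaryocyte genes 173 to 325 and 267 to 1026. Lyz2 alone had 355, 302 and 355 CPM in WT and 867, 808 and 758 CPM in ING4-/-. Every ING4-/- library exceeded every WT library for 2 of the 7 and for 1 of the 4. Ltf was lower in ING4-/- than in WT in ST-HSCs and MPPs, and Ngp in LT-HSCs and ST-HSCs. The sums of 5 T and NK cell genes were 46.3 to 120 in WT and 26.8 to 279 in ING4-/-, with Cd3e and Cd8a at 0 in ING4-/-, and those of 5 B cell genes 86.6 to 107 and 64.2 to 111, with Cd79a, Ms4a1 and Ebf1 at 0 in ING4-/-. The ING4-/- B cell sums were all Cd79b, at 111, 80.1 and 64.2 CPM, against 26.8, 26.1 and 31.6 CPM in WT. The 11 stem and progenitor genes summed to 1752 to 2955 in WT and 2466 to 4369 in ING4-/-. The part of these cells in the ribosomal protein result was not tested.

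**Figure D2:**
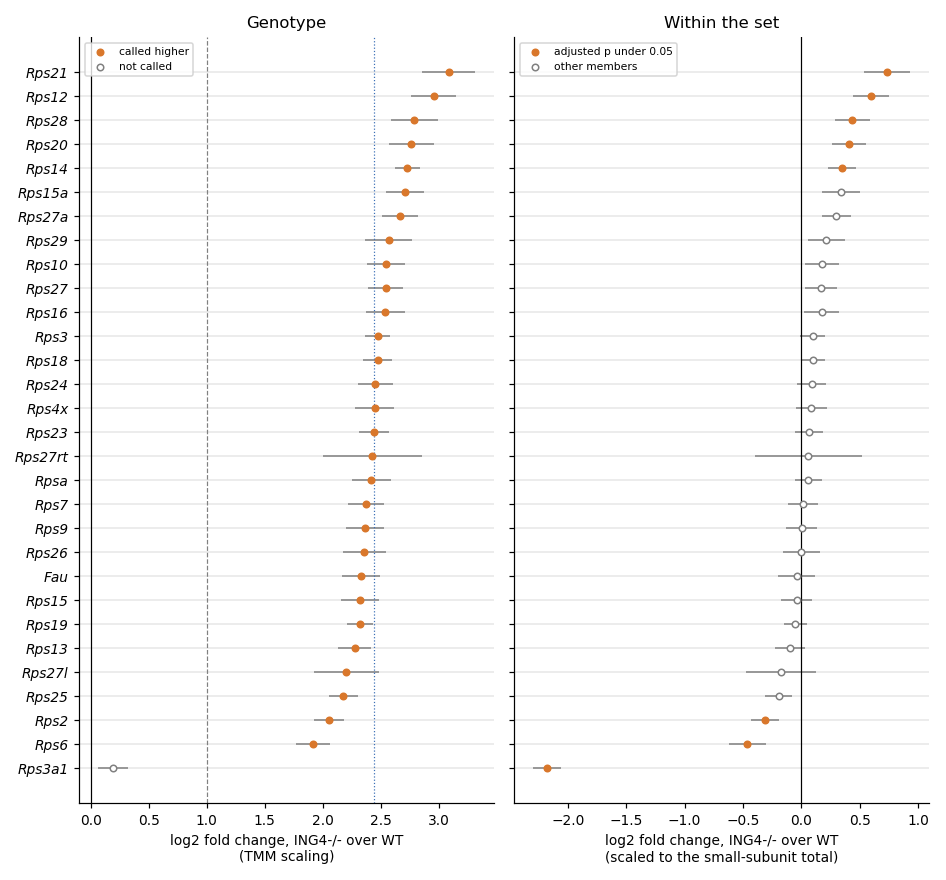
Left, log2 fold change of 30 of the 34 small-subunit genes in ING4-/- against WT with its standard error (3 libraries per genotype), with dashed and dotted lines at the threshold of 1 and at the median of 2.45 over all 34. Right, the same fold change after each library was scaled to its total over these genes, where filled points have an adjusted p under 0.05 and Rps3a1 stands apart at -2.18.

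The largest fold changes were those of Rps21 and Rps12. Rps21, a short protein of the body, had 48.3, 63.4 and 77.5 CPM in WT and 516, 509 and 582 CPM in ING4-/-, a log2 fold change of 3.09 (SE 0.23, adjusted p = 0.000657). It was lowest of the WT populations in LT-HSCs and highest in MPPs, and the genotypes were far apart. Rps12, which forms part of the beak of the head, had 105, 154 and 146 CPM in WT and 1089, 1004 and 1048 CPM in ING4-/-, a log2 fold change of 2.96 (SE 0.19, adjusted p = 0.000657). In the GENCODE annotation Rps12 shares 13.7% of its 2027 exonic bases on the same strand with small nucleolar RNA genes and another gene. Its length in the deposited counts is 476 bases and its ends differ, so how far its counts are affected is not known.

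Rps28, Rps20 and Rps14 came next. Rps28 sits near the point where mRNA leaves the subunit, and it rose from 174, 244 and 278 CPM to 1644, 1632 and 1540 CPM, a log2 fold change of 2.79 (SE 0.20). Rps20, a head protein, rose from 159, 220 and 245 CPM to 1417, 1385 and 1430 CPM, a log2 fold change of 2.76 (SE 0.19). Both had an adjusted p of 0.000657, and in both the WT LT-HSC library was the lowest of all. Rps14, a platform protein whose lost copy in human 5q- syndrome impairs erythropoiesis, rose from 574, 545 and 578 CPM to 3900, 3755 and 3599 CPM, a log2 fold change of 2.73 (SE 0.11, adjusted p = 0.000276). Its WT libraries varied little.

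At the other end of the range, Rps6 rose by a log2 fold change of 1.92 (SE 0.15, adjusted p = 0.000657). Rps6 is the substrate of the S6 kinases, and its levels were 363, 345 and 361 CPM in WT and 1555, 1212 and 1271 CPM in ING4-/-. Rps2, which lines the mRNA entry channel, was at 542, 627 and 624 CPM in WT and 2235, 2628 and 2583 CPM in ING4-/-, a log2 fold change of 2.05 (SE 0.13). The genotypes did not overlap in either gene. Rps25, a head protein used by viral internal ribosome entry sites, was at 336, 364 and 384 CPM in WT and 1679, 1663 and 1561 CPM in ING4-/-, a log2 fold change of 2.18 (SE 0.13). The adjusted p was 0.000657 for Rps2 and 0.000641 for Rps25. Rps25 shares 24.8% of its exonic bases with Ccdc84 and Trappc4 on the other strand, and whether counting used strand is not given in the sources used here.

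Per length of transcript, Rps23 and Rps14 were among the 3 highest members. Rps23, which reaches into the decoding centre, had 433 CPM per kb in WT and 2349 CPM per kb in ING4-/-, with levels of 306, 334 and 341 CPM and 1840, 1674 and 1814 CPM. Its WT and ING4-/- libraries each lay close together, and its log2 fold change was 2.44 (SE 0.13, adjusted p = 0.000561). Rps14 had 409 CPM per kb in WT and 2711 CPM per kb in ING4-/-.

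Other head proteins fell within a narrow band. Rps27a, made as a fusion with ubiquitin, had a log2 fold change of 2.66, Rps29 of 2.57, Rps10 of 2.55 and Rps16 of 2.54. Rps3, which borders the mRNA entry, and Rps18 both had 2.47, while Rps15 and Rps19, the gene most often mutated in Diamond-Blackfan anaemia, had 2.32. All 14 head genes were called higher, against 7.98% of all genes tested, with a median of 2.54. In the GENCODE annotation Rps10 shares 20.6% of its 2311 exonic bases on the same strand with the readthrough gene RPS10-NUDT3 and Gm15420. Its length in the deposited counts is 1937 bases and its ends differ.

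Of the 18 body and platform genes, 17 were called higher, with a median of 2.37. Rps15a had a log2 fold change of 2.71, Rps27 of 2.54, and Rps24 and Rps4x of 2.45. Rpsa, also known as the laminin receptor, had 2.42, Rps7 2.38, Rps9 2.37, Rps26 2.36 and Fau, which encodes Rps30 fused to a ubiquitin-like protein, 2.33. Rps13 had 2.27. Background of the receptor density accounted for a median of 1.03% of a member's WT counts, and for more than 5% in Rps27rt and Rps15a. All 11 listed small-subunit genes mutated in Diamond-Blackfan anaemia, each also a head or body gene above, were called higher, against 7.98% of all genes tested. Their median was 2.54.

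Rps3a1 was the exception. This platform protein, which lies beside the mRNA exit, is encoded at chr3:86137940-86142702 of GRCm38 on the minus strand. It was at 593, 634 and 662 CPM in WT and at 758, 702 and 700 CPM in ING4-/-. The genotypes did not overlap but the log2 fold change was 0.19 (SE 0.13), and the adjusted p was 0.228 in edgeR's quasi-likelihood test. The sign of this small difference depended on the scaling: it was 0.79 (adjusted p = 0.00133) with upper-quartile scaling, -0.16 (adjusted p = 0.301) with DESeq2's size factors and -0.62 (adjusted p = 0.0052) with the background density subtracted. Its size stayed under the threshold of 1 in each. By population, the log2 ratio of Rps3a1 was 0.35, 0.15 and 0.080, where the lowest ratio of any other member was 1.52, 1.81 and 1.82.

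The genome also holds 2 processed copies of the gene, intronless and annotated as pseudogenes, that are nearly the same in sequence. Rps3a2 lies at chr14:88123017-88123808 on the minus strand and Rps3a3 at chr13:108670603-108671397 on the plus strand. Rps3a2 differs from the coding sequence of Rps3a1 by 4 substitutions in 792 aligned bases (99.49% identity) and Rps3a3 by 9 in 795 (98.87%). The window of 120 coding bases with most differences, positions 549 to 668 counted from 1 at the start codon, is shown to let a reader see how few bases separate the 3 genes. Capitals mark the positions at which either copy differs from Rps3a1 and, in a copy, the bases of that copy that differ (A645T and T668C in Rps3a2, G582T and A660G in Rps3a3).
Rps3a1: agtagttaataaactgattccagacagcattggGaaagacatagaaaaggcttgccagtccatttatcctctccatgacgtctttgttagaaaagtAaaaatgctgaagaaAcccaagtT
Rps3a2: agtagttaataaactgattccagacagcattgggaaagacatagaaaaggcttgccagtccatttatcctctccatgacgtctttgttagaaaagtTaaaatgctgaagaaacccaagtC
Rps3a3: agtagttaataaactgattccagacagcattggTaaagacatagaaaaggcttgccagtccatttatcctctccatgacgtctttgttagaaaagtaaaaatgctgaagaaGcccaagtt

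The split of counts between these genes differed by genotype. Rps3a1 had 5661, 5920 and 6780 counts in WT and 23862, 22320 and 23859 counts in ING4-/-. Rps3a3 had 22, 38 and 42 counts in WT and 36368, 32825 and 32535 counts in ING4-/-, above those of Rps3a1 itself. Rps3a2 had 21, 19 and 34 counts in WT and 8776, 7974 and 7545 counts in ING4-/-. The log2 fold change was 8.23 (SE 0.32, adjusted p = 0.000276) for Rps3a3 and 6.63 (SE 0.32, adjusted p = 0.000447) for Rps3a2. The background density in WT was 18.1 to 22.7 counts per kb, and the copies are 795 and 792 bases long. A large part of their few WT counts can therefore be background, and the size of these fold changes is uncertain. Of the counts on the 3 genes, Rps3a1 held 99.1% ± 0.18 (SD, n = 3) in WT and 35.8% ± 1.4 (SD, n = 3) in ING4-/- (two-sided exact permutation p = 0.1, the smallest possible). With the counts of its 6 annotated copies added, Rps3a1 had a log2 fold change of 1.66 (SE 0.12, adjusted p = 0.000658) and passed the threshold. How reads that match several places were counted is not given in the sources used here.

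**Figure D3:**
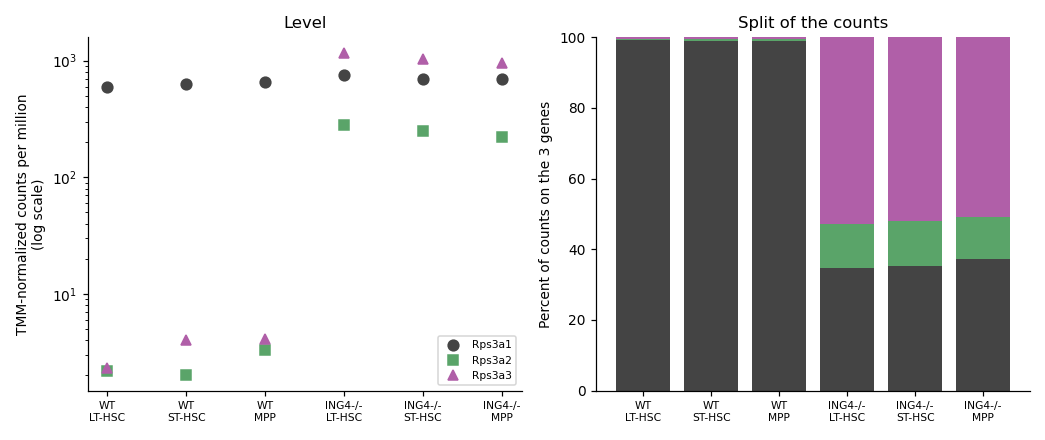
Left, TMM-normalized CPM (log axis) of Rps3a1 and its copies Rps3a2 and Rps3a3 in each library. Right, the percentage of the counts of the 3 genes that each holds, where Rps3a1 has 98.9 to 99.2% in the WT libraries and 34.6 to 37.3% in the ING4-/- libraries.

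No other member showed a rise of its copies of this size. Annotated processed copies were found for 33 of the 34 members, 295 in all. The share of counts on the copies was higher in WT for 27 of the 33 and higher in ING4-/- for 6. Outside Rps3a1 and Rps27rt, its median was 3.57% in WT, with a highest value of 16.3% for Rps24, and 1.33% in ING4-/-, with a highest value of 9.15%, again for Rps24. For Rps3a1 the share was 1.49% in WT and 64.3% in ING4-/-. Adding copies moved the log2 fold change of the other 32 members by at most 0.22.

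**Figure D4:**
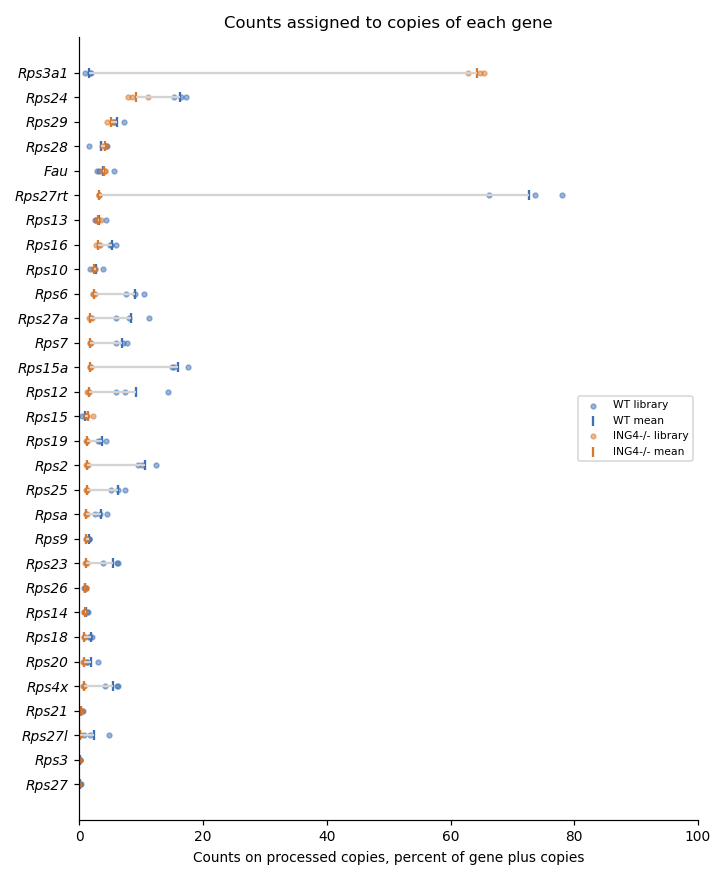
Percentage of counts that fell on processed copies, of the counts of the gene and its copies together, for 30 of the 33 small-subunit genes with annotated copies (points, libraries, and vertical ticks, means of 3). Rps3a1 has the widest gap with ING4-/- above WT (64.3% and 1.49%), and Rps27rt the widest with WT above ING4-/- (72.6% and 3.17%).

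The paralogs of Rps27 posed a related question. Rps27rt, an intronless gene at chr9:114982366-114982739 on the minus strand, and Rps27, at chr3:90212522-90213651 on the minus strand, have identical coding sequences over 255 bases, so reads inside the coding sequence cannot be told apart. Rps27l, at chr9:66946086-66949516 on the plus strand, differs from Rps27 at 61 of 255 bases (76.08% identity) and can be separated. The first 100 coding bases are shown for this contrast, and capitals mark the 25 positions at which Rps27l differs from Rps27.
Rps27: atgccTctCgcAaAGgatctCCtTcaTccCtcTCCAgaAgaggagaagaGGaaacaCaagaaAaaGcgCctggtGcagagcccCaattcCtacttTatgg
Rps27rt: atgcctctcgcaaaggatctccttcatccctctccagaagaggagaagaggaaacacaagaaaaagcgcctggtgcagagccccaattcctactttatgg
Rps27l: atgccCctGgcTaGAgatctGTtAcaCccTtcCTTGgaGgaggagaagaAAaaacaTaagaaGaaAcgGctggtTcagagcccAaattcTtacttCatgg

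Rps27rt was the least abundant member, with 54, 62 and 69 counts in WT and 1053, 1101 and 1172 counts in ING4-/-. Its log2 fold change was 2.43 (SE 0.43, adjusted p = 0.00163), the least precise of the 34, and 6.77 to 8.50 of its WT counts would come from the background alone. Its 7 copies held 72.6% of the joint counts in WT and 3.17% in ING4-/-. With these added the log2 fold change was 0.58 (SE 0.35, adjusted p = 0.188), which no longer passed. As the coding sequences are identical, the 7 may as well be copies of Rps27, and this value rests on assigning them to Rps27rt. Rps27 itself, encoded by a spliced gene, had 3042, 2852 and 3795 counts in WT and 67554, 57689 and 62454 counts in ING4-/-.

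Rps27l, a p53 target gene whose product can take the place of Rps27, had 766, 769 and 720 counts in WT and 7252, 13772 and 13948 counts in ING4-/-. Its log2 fold change was 2.20 (SE 0.28, adjusted p = 0.000657). Its ING4-/- LT-HSC library was well below the other 2, at 230 CPM against 433 and 409, and the WT libraries ran from 70.3 to 82.4 CPM. The Rps27l part of the summed Rps27 and Rps27l counts was 19.1% ± 2.8 in WT and 15.7% ± 5.3 in ING4-/- (SD, n = 3, two-sided exact permutation p = 0.5). Rps4l, the pseudogene paralog of Rps4x, had 167, 274 and 228 counts in WT and 1710, 2136 and 1522 in ING4-/-, a log2 fold change of 1.27 (SE 0.36, adjusted p = 0.0157).

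To ask whether members kept their proportions, each library was scaled to its total over the 34 genes, so that a fold change of a member describes its part of the set. Under this scaling 1 of 34 members, Rps3a1, was called in either direction, at -2.18 (adjusted p = 0.000311), against 82.1% of all 31001 genes tested. The scaling centres the members near 0 by construction and lowers other genes, so this contrast does not measure how steady the members are. A change of the whole set cannot be seen in this fit. The other 33 lay between -0.46 and 0.73. Of these, 7 had an adjusted p under 0.05 without reaching a log2 fold change of 1 in size. Rps21 (0.73, adjusted p = 0.0106), Rps12 (0.60, adjusted p = 0.00943), Rps28 (0.43), Rps20 (0.41) and Rps14 (0.35) gained, and Rps6 (-0.46) and Rps2 (-0.31) lost. Rps21, Rps12 and Rps3a1 kept an adjusted p under 0.05 in all 13 alternative fits, while Rps2 did so in 5, Rps20 in 6, Rps14 in 7, Rps6 in 8 and Rps28 in 9. With copies added, Rps3a1 was at -0.70 (adjusted p = 0.000789) and Rps27rt, at -1.79 (adjusted p = 0.00447), was the member called, which again rests on the assignment of its copies.

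The order of abundance within the set was otherwise much alike. Rpsa came first in both genotypes, followed by Rps19 and then Rps18 by mean percentage of the set, with 6.90%, 6.74% and 5.86% in WT and 7.19%, 6.50% and 6.29% in ING4-/-. Rps3a1 went from rank 5 with 5.40% of the set to rank 30 with 1.19%, a shift of 25 places, where the largest shift of any other member was 8. Across the 34 members, Spearman's rho between libraries was 0.976 to 0.990 within a genotype and 0.825 to 0.869 between genotypes. Between the 2 genotype means rho was 0.856, and 0.952 over the 33 members without Rps3a1. These values describe genes measured in the same libraries, which share depth and background.

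Head genes held 41.8% ± 0.46 of head and body counts in WT and 45.7% ± 0.70 in ING4-/- (SD, n = 3), and 44.2% ± 0.37 and 46.3% ± 0.70 when Rps3a1 was left out. The libraries did not overlap in either form (two-sided exact permutation p = 0.1, the smallest possible). The ratio of small-subunit to large-subunit counts was 0.715 ± 0.0078 in WT and 0.834 ± 0.031 in ING4-/- (exact permutation p = 0.1). Large-subunit genes, the Rpl partners of the 60S subunit, were called higher for 47 of 48 tested, against 7.98% of all genes. Their median log2 fold change was 2.17. Rpl39l, a paralog best known from testis, was called lower, against 56.7% of all genes, on 9, 26 and 9 WT counts and 0 in each ING4-/- library.

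Start sites of the members were read for the TOP motif named above. RefSeq promoter windows of GRCm38.p6, from 250 bases before to 50 after a start site, matched 26 of the 34 members. A C followed by at least 5 C or T on the transcribed strand, from 20 bases before to 30 after the start, was present for 21 of the 26 (80.8%) and for 37.8% of all 27025 symbols with a window. The sequence CCGGAAG, the core bound by ETS factors, occurred on either strand in the whole window for 11 (42.3%) and for 9.9% of all symbols. A symbol with several windows was counted once, if any held the motif. The windows below, from 10 bases before the annotated start to 20 bases from it onward, show 3 members with such a run near the start, in capitals, and 2 without, Rps3a1 and Rps28.
Fau, chr19:6057937-6057966, plus strand: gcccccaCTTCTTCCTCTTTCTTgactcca
Rps18, chr17:33955646-33955675, minus strand: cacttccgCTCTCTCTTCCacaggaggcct
Rps26, chr10:128626487-128626516, minus strand: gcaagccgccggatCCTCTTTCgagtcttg
Rps3a1, chr3:86142649-86142678, minus strand: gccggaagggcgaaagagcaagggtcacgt
Rps28, chr17:33824543-33824572, minus strand: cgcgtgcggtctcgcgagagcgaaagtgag
A missing run says only that these letters are not in that window. Of the members shown, Rps28 and Rps3a1, without it, had log2 fold changes of 2.79 and 0.19, and Fau, Rps18 and Rps26, with it, of 2.33, 2.47 and 2.36. Whether the run goes with the fold change over all members was not tested.

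No member was called between populations. MPPs, ST-HSCs and LT-HSCs were compared with genotype as a term, and of 36170 genes tested none passed an adjusted p of 0.05 in edgeR in any of the 3 comparisons. The 34 members therefore had 0 calls against 0.00% of all genes for MPPs against LT-HSCs, 0 against 0.00% for ST-HSCs against LT-HSCs and 0 against 0.00% for MPPs against ST-HSCs. At an unadjusted p under 0.05 there were 1, 0 and 0 members and 564, 624 and 183 genes. DESeq2 called 0 members in each, and 367, 256 and 0 genes. The member was Rps29, a small zinc-binding protein of the head, with 203, 276 and 326 CPM in WT and 1492, 1581 and 1702 CPM in ING4-/-. Its log2 fold change for MPPs against LT-HSCs was 0.43 (SE 0.17, unadjusted p = 0.0438, adjusted p = 1), and the order of the populations was the same in both genotypes.

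Taken genotype by genotype, with 1 library per population and so no test, the step from LT-HSCs to MPPs had a median log2 ratio of 0.26 over the 34 members in WT, with 32 higher. In ING4-/- the median was -0.057, with 14 higher. The WT libraries also differed in background, which was 33.4%, 33.0% and 22.6% of their counts. With the background density subtracted the medians were 0.18 and -0.11, with 30 and 11 members higher. Rps27l was the lowest member in WT, at -0.19, and the highest in ING4-/-, at 0.83.

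**Figure D5:**
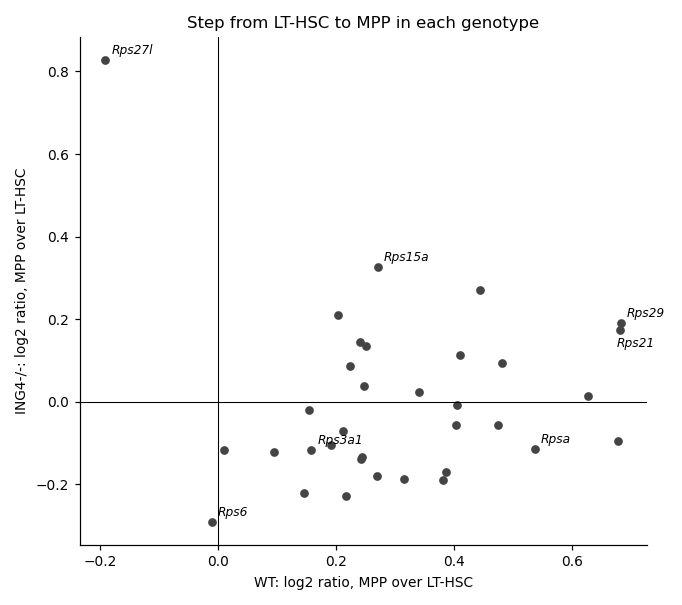
Log2 ratio of MPPs to LT-HSCs for each of the 34 small-subunit genes in WT (horizontal axis) and in ING4-/- (vertical axis), 1 library per population and genotype. Most points lie right of 0 in WT (32 of 34) and on both sides of 0 in ING4-/- (14 above), with Rps27l at the upper left.

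Within each population, the ratio of ING4-/- to WT was above 1 on the log2 scale for 33 of the 34 members. The medians were 2.63, 2.39 and 2.31, again on 1 library per genotype. Rps21 had the highest ratio in each, at 3.42, 3.00 and 2.91. Apart from Rps3a1, the lowest was that of Rps27l in LT-HSCs and of Rps6 in ST-HSCs and MPPs.

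Genes that make and regulate the 40S subunit were compared as a fixed list. Of 57 genes of small-subunit assembly and rRNA processing used here, 56 were tested, 11 were called higher and none lower, against 7.98% called higher among all genes. Their median log2 fold change was 0.72, where that of the 40S proteins was 2.45, and together they held 0.431% of the counts in WT and 0.513% in ING4-/-. The count of 11 was not stable: it was 33 with upper-quartile scaling, 5 with DESeq2's size factors, 4 with total counts, 2 with the background density subtracted and 19 without the ING4-/- LT-HSC library. Trmt112, which activates the methyltransferase of 18S rRNA, was highest, with 553, 585 and 704 counts in WT and 7318, 8086 and 7912 counts in ING4-/- (log2 fold change 1.93, SE 0.18, adjusted p = 0.000657).

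Imp3, of the U3 small nucleolar ribonucleoprotein, followed with 356, 417 and 283 counts in WT and 6177, 2517 and 4239 in ING4-/- (1.87, SE 0.39, adjusted p = 0.00375). Utp15, which promotes rDNA transcription, had 422, 373 and 468 counts in WT and 2571, 4867 and 4858 in ING4-/- (1.54, SE 0.30, adjusted p = 0.00253). The lowest values belonged to large processome proteins and did not pass the test. Utp20 had 527, 493 and 648 counts in WT and 19, 700 and 719 in ING4-/- (-1.97, SE 1.06, adjusted p = 0.144). Nol10 (-1.53, adjusted p = 0.200) and Utp14a (-1.09, adjusted p = 0.393) likewise had their fewest ING4-/- counts in LT-HSCs, 23 and 28.

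Rack1, the scaffold protein that binds the head of the finished subunit without carrying an Rps symbol, had 3363, 4314 and 4263 counts in WT and 60528, 55901 and 58912 in ING4-/-. Its log2 fold change of 2.14 (SE 0.15, adjusted p = 0.000657) lay within the range of the members. None of 10 S6 kinase genes, whose products phosphorylate Rps6, was called higher, against 7.98% of all genes tested, and their median log2 fold change was 0.065. Rps6ka2 was the 1 called lower, against 56.7% of all genes, on 81, 67 and 75 counts in WT and 0 in each ING4-/- library, where the background alone would give 97.8 to 123 counts in WT. Of 11 mTORC1 and TOP mRNA regulators, 2 were called higher, against 7.98% of all genes, Akt1s1 (1.15, SE 0.31, adjusted p = 0.0121) and Eif4ebp1 (1.18, SE 0.18, adjusted p = 0.000927), both inhibitors of the pathway, and the median was -0.42. Larp1, which binds the TOP motif, had -1.01 (SE 0.44, adjusted p = 0.082).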

How the data were processed

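Bulk RNA-seq counts of 6 libraries were used, LT-HSCs, ST-HSCs and MPPs of WT and ING4-/- mice, grouped by the sample labels. The authors deposited raw counts per gene without normalization, and library construction, sequencing and first analyses were done for them by a company. The labels' processing notes name mm10. The aligner, counter and strand setting are not given in the sources used here. The file's gene coordinates matched GENCODE GRCm38 for 26 of 34 members, and 49056 of 49315 identifiers were found there. The members and lists were chosen with earlier results of these data known.

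The genotype fit was run in R 4.3.3 with edgeR 4.0.16, using TMM factors, the filterByExpr filter and the quasi-likelihood F test, with Benjamini-Hochberg adjustment over all genes tested. Populations were compared with genotype as a term. CPM values use TMM-scaled totals, and log2 ratios a prior count of 2. Shares were compared by exact permutation. Copies were annotated pseudogenes matching a member's transcript in blastn 2.17.0 at 90% identity over at least 50% of their length. Coding sequences were aligned in Biopython 1.88. Intervals and floors cover counting error only, since reads without molecular identifiers are not independent molecules, and the lowest member count outside Rps27rt was 461 in WT and 7252 in ING4-/-. The scripts were tested on simulated data with known changes.

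Deviations from the genotype mean over 9673 genes correlated between the WT and ING4-/- library of a population, with r = 0.143 (LT-HSCs), 0.110 (ST-HSCs) and 0.121 (MPPs). Population therefore pairs the libraries and entered an alternative fit as a block. No 2 libraries were duplicates. Other alternatives were DESeq2 1.42.0, other normalizations, filters and gene sets, background subtraction, thinning, removal of a length trend, copies added and each library left out. TMM factors from genes with at least 10 counts, set scaling without Rps3a1 and background subtraction in the population comparisons were chosen after seeing the data. Values of 4 single members are not reported here, though they remain in the counts and medians over all 34. The other 30 are named, and counts with full statistics are given for the 5 highest and 5 lowest fold changes, the 3 highest by mean CPM per kb, members not called higher or called under set scaling, and the paralogs. For the assembly list the 3 highest and 3 lowest are given, with Ing4 and Rack1 as checks. Rps29, Rpl39l, Rps6ka2, Akt1s1, Eif4ebp1 and Larp1 were named after their values were seen. Of 58 assembly symbols 1 was not used here.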

Additional observations from a re-analysis of the deposited data

Results flagged for a closer look

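Between populations, the median of the 34 members was above 0 in WT and slightly below 0 in ING4-/-, where 14 to 16 members were higher and the set had no common direction. These differences were not tested, since each population had 1 library per genotype. For MPPs against LT-HSCs the median log2 ratio of the 34 members was 0.26 in WT and -0.057 in ING4-/-, and 20 members had opposite directions. For ST-HSCs against LT-HSCs the medians were 0.22 and -0.016, with 16 members opposite. For MPPs against ST-HSCs they were 0.077 and -0.0034, with 19 opposite. With the background density subtracted, the medians for ST-HSCs against LT-HSCs were 0.31 in WT and -0.10 in ING4-/-, and those for MPPs against ST-HSCs changed sign, to -0.12 and 0.032.

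Rps27l was the member with the widest contrast, with a log2 ratio of MPPs to LT-HSCs of -0.19 in WT and 0.83 in ING4-/-. In ING4-/- it was also 0.91 higher in ST-HSCs than in LT-HSCs, against 0.037 in WT.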

How the results depend on the processing

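The number of members called higher, the share of counts and the number called under set scaling stayed within 1.5 times under the alternatives run, but not always with the same genes. With copies added, Rps3a1 was called higher (1.66) and Rps27rt was not (0.58, adjusted p = 0.188), and under set scaling Rps27rt was called in place of Rps3a1. The 0 calls between populations stayed 0. The median log2 fold change of the members was 2.45 and moved to 2.09 with DESeq2's size factors, 2.09 with the DESeq2 Wald test, 3.04 with upper-quartile scaling, 2.03 with total counts, 1.98 with at least 10 counts in every library and with TMM factors from those genes, 2.10 over protein-coding genes, 1.65 with background subtracted, 2.24 with libraries thinned to the lowest total, and 8.41 with the length trend removed. The median over all genes was -7.17 with DESeq2's size factors, -7.22 with total counts and -6.35 with upper-quartile scaling. Rps3a1 went from 0.19 to 0.79 (adjusted p = 0.00133) with upper-quartile scaling and reversed to -0.16 with DESeq2's size factors and the Wald test, -0.22 with total counts, -0.27 with at least 10 counts and with TMM factors from those genes, -0.15 over protein-coding genes, -0.62 with background subtracted (adjusted p = 0.0052) and -0.028 when thinned. The 11 assembly genes called higher became 5 with DESeq2's size factors, the Wald test or protein-coding genes, 33 with upper-quartile scaling, 4 with total counts, the minimum of 10 counts or its TMM factors, 2 with background subtracted and 6 when thinned. Leaving out 1 library gave 7 to 19, 19 without ING4-/- LT-HSCs and 7 without WT ST-HSCs or WT MPPs. Apart from the alternatives' own construction, the cause was not tested. With population as a replicate block, which pairs the libraries, 33 members were called higher with a median of 2.45 and 9 assembly genes were called, and the block changed no call of a member. The least deep library had 7839326 counts, and depth limits Rps27rt most.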
